A study of Mus musculus with 9 samples.

Results

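A set of 9 genes that read higher in Rag1-/- than in Rag1-sufficient innate lymphoid cells (ILCs) of mouse skin is described here. They were Upp1, Amph, Timp2, Colgalt2, Smpd1, Prelid2, Adgrg1, Atp6v0a1 and Spry2. They were selected on these same intensities, as genes that read higher in the Rag1-/- arrays of one or both sorted fractions, so every genotype difference given for them is a description of the choice and carries no test. The 9 genes had 1 probe set each, among 24922 probe sets on the array, 21425 of which named a single gene. All 9 probe sets were among the 17445 that remained after the dimmest 30% were left out, and none of them fell below that limit (an intensity of 41.6) on any array.

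Gene expression was measured on 9 one-colour Affymetrix arrays, 1 for each sorted sample, in 4 groups. From Rag1-/- mice there were 2 samples of GFP+ and 3 of GFP- cells. From mice with a working Rag1 gene (Rag1-sufficient) there were 2 of each. All mice were B6 females with EGFP at 1 Ccr10 allele, so green fluorescence reports the chemokine receptor CCR10 in both genotypes. Skin cells positive for CD45.2 and negative for CD3 and the other lineage antigens (CD5, CD11b, B220, 7-4, Gr-1 and a Ter antigen) were sorted into Trizol as a GFP+ and a GFP- fraction. The labels give no age, and they do not say whether replicates came from separate animals, so the spread between arrays may be technical. In such sorted bulk samples, fewer cells of a type and less RNA per cell cannot be told apart.

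The deposited values were already on a common scale, with array medians between 74.1 and 77.6. The summed intensity of 8 ILC genes, Il7r, Gata3 and Thy1 among them, lay between 21654 and 24590 on every array. That sum rests mostly on bright genes such as Id2 and does not follow each gene. Kit averaged 1130 in Rag1-/- GFP+ and 532 in Rag1-sufficient GFP+ samples, with 1301 and 1382 in the matching GFP- groups. Klrg1, dim in GFP+ cells, averaged 30.9 and 40.9 there, and 73.8 and 89.4 in GFP- cells. Both were named after their values were seen, and 0 of the 8 genes passed the limma threshold used below. Rag1 read 28.4 to 31.4 on all 9 arrays, under the limit for dim probe sets, and so gave no check of the genotype. Ccr10 read 96.5 and 148 in the Rag1-/- GFP+ samples and 103 to 125 in the Rag1-/- GFP- samples, which overlapped. In Rag1-sufficient samples Ccr10 read 130.3 and 163 with GFP and 126 and 129 without it.

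Rag1 encodes a subunit of the recombinase that assembles antigen receptor genes, and mice without it lack mature T and B cells while ILCs remain. Skin ILCs are tissue-resident lymphocytes that make cytokines on the signals of nearby epithelial cells, and CCR10 is a receptor for a chemokine of the epidermis. The 9 genes belong to no single pathway. Upp1 and Smpd1 encode enzymes that break down a nucleoside and a sphingolipid, and Prelid2 belongs to the PRELI family of mitochondrial lipid carriers. Adgrg1 encodes an adhesion G protein-coupled receptor (GPR56). Amph and Atp6v0a1 encode a protein of endocytic membranes and a subunit of the proton pump of acidic organelles. Timp2 and Colgalt2 encode an inhibitor of matrix metalloproteinases and an enzyme of collagen modification. Spry2 encodes a feedback inhibitor of receptor tyrosine kinase signalling.

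The genes fell into 3 patterns. Upp1, Amph, Timp2 and Colgalt2 read higher in Rag1-/- cells of both fractions. Smpd1, Prelid2 and Adgrg1 showed most of their difference in the GFP- fraction, and Atp6v0a1 and Spry2 showed it in the GFP+ fraction. All values below are intensities, and differences are on the log2(intensity + 1) scale as Rag1-/- minus Rag1-sufficient with the standard error (SE) of a limma model over all 9 arrays.

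**Figure D1:**
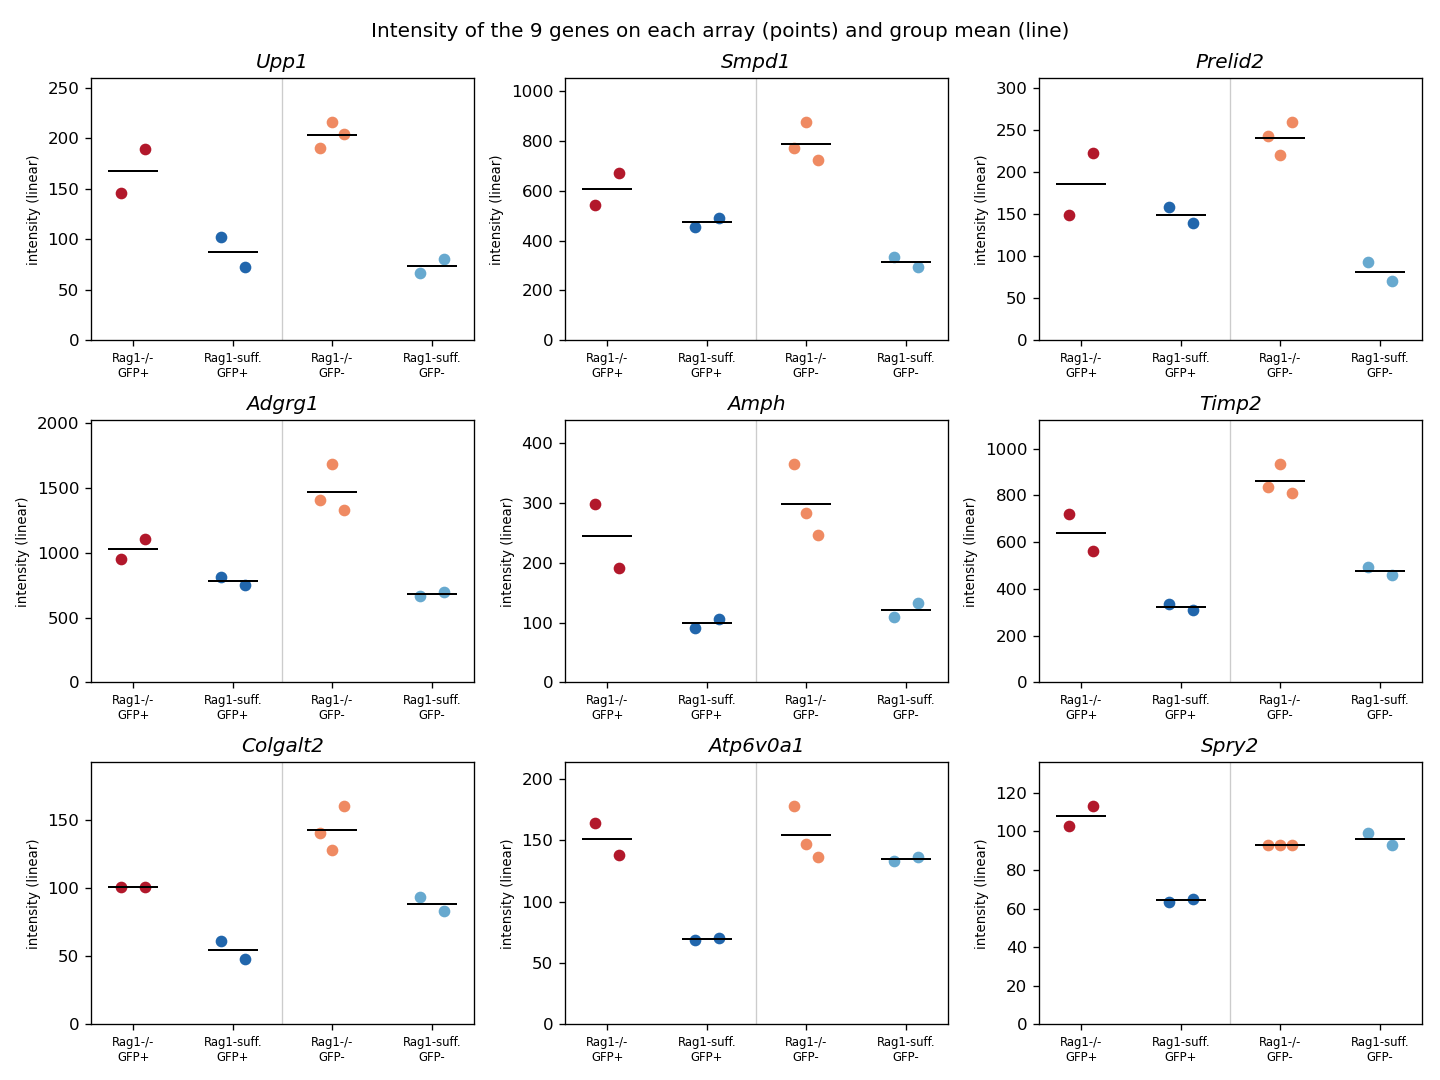
Intensity of each gene on each of the 9 arrays (linear axis from 0), 1 panel per gene, with points for single arrays and lines for group means, in the order Rag1-/- GFP+, Rag1-sufficient GFP+, Rag1-/- GFP- and Rag1-sufficient GFP-. The Rag1-/- points lie above the Rag1-sufficient points of the same fraction in 8 of 9 panels for GFP+ cells and in 7 of 9 for GFP- cells.

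Promoters were read from RefSeq's windows on GRCm38.p6, which run from 250 bases before to 50 bases after a transcript's start. There were 10 windows for 7 of the genes, and Prelid2 and Colgalt2 are not shown. A loose form of the letters bound by AP-1, the factor family of Fos and Jun that follows receptor signalling, was searched. It was TGANTCA with any letter at N, which reads the same way on both strands. Matches occurred in 4 of the 10 windows, of Upp1, Adgrg1 and Atp6v0a1, against 2565 of all 32851 windows (7.81%). The motifs were chosen with the genes' values and sequences in view, and a match is only a run of letters. The windows of these 3 genes, 1 from each pattern, are printed because they carry the match, which is in capitals. The Upp1 window (chr11:9117758-9118057, plus strand) has it with the first letter at -45 from the start, and a second, overlapping Upp1 window holds the same letters. The Adgrg1 window (chr8:94984149-94984448, plus strand) has it at -141 and at -59, and another Adgrg1 window has none. The Atp6v0a1 window (chr11:101010148-101010447, plus strand) has it at -111, as TGATTCA. The matches of Upp1 and Adgrg1 are TGAGTCA or TGACTCA, the usual AP-1 letters, and that of Atp6v0a1 is not. The Adgrg1 and Atp6v0a1 windows printed here begin inside the genes' coordinates, so their positions count from a start within the gene.
Upp1: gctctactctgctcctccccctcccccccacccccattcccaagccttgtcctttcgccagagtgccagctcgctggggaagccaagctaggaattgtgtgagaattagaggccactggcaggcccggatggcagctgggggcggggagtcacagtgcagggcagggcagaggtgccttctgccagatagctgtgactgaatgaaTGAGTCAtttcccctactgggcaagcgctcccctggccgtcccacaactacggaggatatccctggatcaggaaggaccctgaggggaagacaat
Adgrg1: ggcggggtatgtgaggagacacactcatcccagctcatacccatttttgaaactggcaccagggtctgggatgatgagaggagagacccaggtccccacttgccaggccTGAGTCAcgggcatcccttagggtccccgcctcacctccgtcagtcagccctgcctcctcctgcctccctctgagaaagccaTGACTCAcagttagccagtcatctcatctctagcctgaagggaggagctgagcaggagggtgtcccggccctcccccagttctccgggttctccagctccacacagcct
Atp6v0a1: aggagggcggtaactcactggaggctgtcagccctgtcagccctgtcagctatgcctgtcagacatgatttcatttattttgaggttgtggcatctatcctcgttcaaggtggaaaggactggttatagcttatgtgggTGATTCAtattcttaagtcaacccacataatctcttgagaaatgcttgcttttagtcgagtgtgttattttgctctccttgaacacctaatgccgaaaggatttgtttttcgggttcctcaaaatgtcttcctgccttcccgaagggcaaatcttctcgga

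The windows of Smpd1, Amph, Timp2 and Spry2 held no TGANTCA. The GC box GGGCGG, the letters of Sp1-type factors, was found on either strand in the windows of 4 genes, in 6 of 10 windows, where 35.7% of all windows have it. A loose form of the RUNX letters, TGNGGT with any letter at N on either strand, was in windows of 3 genes, where 45.8% of all windows have it. The matches were TGTGGT in Upp1, TGAGGT in Atp6v0a1 and ACCCCA, on the other strand, in Smpd1. None of the 10 windows held the cyclic AMP response letters TGACGTCA (1.79% of all windows), the E-box CACGTG (7.15%), the lysosomal gene motif CLEAR as TCACGTGA (0.974%), the GATA letters AGATAA (11.2%) or the T-box letters AGGTGTGA (1.28%). CLEAR as spelled here contains the E-box letters.

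Upp1, on chromosome 11 (GRCm38.p6, chr11:9118008-9136170), encodes uridine phosphorylase, which splits uridine into uracil and ribose phosphate. It read 146 and 189 in Rag1-/- GFP+ samples, against 103 and 73.0 in Rag1-sufficient GFP+ samples. The GFP- values were 191, 216 and 204 in Rag1-/- cells, against 67.1 and 80.6 in Rag1-sufficient cells. All 5 Rag1-/- arrays lay above all 4 Rag1-sufficient arrays, the lowest Rag1-/- value being 146 and the highest Rag1-sufficient value 103. The difference was 0.93 ± 0.19 (SE; 1.91-fold) in GFP+ cells and 1.46 ± 0.17 (2.74-fold) in GFP- cells. The means were 168 ± 30.9 (SD, n = 2) and 204 ± 12.8 (n = 3) in the Rag1-/- GFP+ and GFP- groups, with 87.8 ± 21.0 and 73.8 ± 9.54 (n = 2 each) in the matching Rag1-sufficient groups.

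Amph (chr13:18948142-19154032) encodes amphiphysin, a membrane-bending protein best known from the recovery of synaptic vesicles. It read 298 and 192 in Rag1-/- GFP+ samples, against 90.9 and 106 in Rag1-sufficient GFP+ samples. In GFP- samples the values were 365, 282 and 246 in Rag1-/- cells and 109.9 and 132 in Rag1-sufficient cells. The lowest Rag1-/- array (192) stood above the highest Rag1-sufficient array (132) although the Rag1-/- replicates spread widely, with SDs of 75.5 in GFP+ and 60.7 in GFP- samples. Its difference was of equal size in both fractions, 1.27 ± 0.25 in GFP+ cells and 1.28 ± 0.23 in GFP- cells, 2.42-fold in each.

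Timp2 (chr11:118301061-118355411) encodes a secreted inhibitor of matrix metalloproteinases that also takes part in activating MMP2. It read 719 and 561 in Rag1-/- GFP+ samples, against 337 and 311 in Rag1-sufficient GFP+ samples. Among GFP- samples it read 835, 934 and 811 in Rag1-/- cells, against 494 and 461 in Rag1-sufficient cells. Every Rag1-/- array exceeded every Rag1-sufficient array, by 0.97 ± 0.17 (1.96-fold) in GFP+ and 0.85 ± 0.16 (1.80-fold) in GFP- cells on the fitted means.

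Colgalt2 (chr1:152399805-152510695) encodes a galactosyltransferase that adds sugar to hydroxylysines of collagen. It was the dimmest of the 4 genes in this pattern on the Rag1-sufficient GFP+ arrays, at 61.4 and 47.6, while the Rag1-/- GFP+ arrays read 100.6 and 100.7. Without GFP the values were 140.2, 128 and 159.9 in Rag1-/- cells, against 93.7 and 83.4 in Rag1-sufficient cells. All 5 Rag1-/- values were again above all 4 Rag1-sufficient values, with a difference of 0.88 ± 0.15 (1.85-fold) in GFP+ and 0.68 ± 0.13 (1.60-fold) in GFP- cells.

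Smpd1 (chr7:105554360-105558389) encodes acid sphingomyelinase, the lysosomal enzyme that turns sphingomyelin into ceramide. It read 542 and 671 in Rag1-/- GFP+ samples, against 456 and 491 in Rag1-sufficient GFP+ samples. The GFP- arrays read 769.7, 875 and 721 in Rag1-/- cells, against 333 and 293 in Rag1-sufficient cells. The groups did not overlap in either fraction, and the gap was narrow in GFP+ cells, where the difference was 0.35 ± 0.18 (1.27-fold). In GFP- cells it was 1.33 ± 0.16 (2.51-fold).

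Prelid2 (chr18:41875696-41951194) encodes a member of the PRELI family, whose better known members carry phospholipids between the mitochondrial membranes. It read 149 and 222 in Rag1-/- GFP+ samples, against 158 and 139 in Rag1-sufficient GFP+ samples, so the groups overlapped. Among GFP- samples it read 242, 219.8 and 259 in Rag1-/- cells, against 92.7 and 70.3 in Rag1-sufficient cells, with no overlap. It had the greatest GFP- difference of the 9 genes, 1.56 ± 0.19 (2.95-fold), beside 0.29 ± 0.21 (1.23-fold) in GFP+ cells. Without the second Rag1-/- GFP+ array its GFP+ difference was 0.01, and without the first it was 0.58.

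Adgrg1 (chr8:94974756-95014208) encodes GPR56, a receptor that couples to the G12 and G13 proteins and is found on cytotoxic lymphocytes in humans. It was the brightest of the 9 probe sets, though brightness on different probe sets does not compare amounts of RNA. It read 952 and 1107 in Rag1-/- GFP+ samples, against 814 and 750.3 in Rag1-sufficient GFP+ samples. The GFP- values were 1407, 1686 and 1329.8 in Rag1-/- cells, against 665 and 695 in Rag1-sufficient cells. The groups were separate in both fractions, by 0.39 ± 0.17 (1.31-fold) in GFP+ and 1.11 ± 0.15 (2.16-fold) in GFP- cells.

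Atp6v0a1 (chr11:101009422-101063719) encodes an a subunit of the membrane sector of the vacuolar ATPase, which acidifies endosomes and lysosomes. It read 164 and 138 in Rag1-/- GFP+ samples, against 69.1 and 70.0 in Rag1-sufficient GFP+ samples. In GFP- samples it read 178, 147 and 137 in Rag1-/- cells, against 133 and 137 in Rag1-sufficient cells. The GFP+ groups were separate with a difference of 1.10 ± 0.14 (2.15-fold). The GFP- groups met at 137, a value deposited identically for 1 array of each, and differed by 0.18 ± 0.13 (1.14-fold), or by 0.07 without Rag1-/- GFP- replicate 1. The low group was thus Rag1-sufficient GFP+, with a mean of 69.6 ± 0.672 (SD, n = 2), while the other 3 group means lay between 135 and 154.

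Spry2 (chr14:105891947-105896819) encodes Sprouty2, which damps the ERK cascade below growth factor receptors. It read 103 and 113 in Rag1-/- GFP+ samples, against 63.6 and 64.9 in Rag1-sufficient GFP+ samples. All 3 Rag1-/- GFP- arrays held the identical deposited value of 93.0, and the Rag1-sufficient GFP- arrays held 99.0 and 93.0. A spread of 0 among 3 arrays means that their error is not measured, and the standard error of Spry2 is understated for the same reason. The difference was 0.74 ± 0.09 (1.67-fold) in GFP+ cells and -0.05 ± 0.08 (0.969-fold) in GFP- cells, where the groups overlapped.

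Across the 9 genes, the Rag1-/- mean was higher for 9 in GFP+ cells and for 8 in GFP- cells, the exception being Spry2. The median difference was 0.88 in GFP+ cells and 1.11 in GFP- cells, where all 17445 probe sets had medians of -0.02 and 0.00. The Rag1-/- arrays lay entirely above the Rag1-sufficient arrays for 8 of the 9 genes in GFP+ cells (11.0% of all probe sets tested) and for 7 of 9 in GFP- cells (23.0%). All 5 Rag1-/- arrays exceeded all 4 Rag1-sufficient arrays for 6 of 9 genes, where 1.32% of probe sets did. These counts follow from the choice of the genes.

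The 2 Rag1-/- GFP+ arrays were not alike in their content of mast cell genes, and each was therefore left out in turn. Without the first, the GFP+ differences of the 9 genes lay between 0.50 and 1.12, with Upp1 at the top and Adgrg1 at the bottom. Without the second they lay between 0.01 for Prelid2 and 1.59 for Amph. Smpd1 was 0.50 without the first and 0.19 without the second, a change of over 1.5 times against 0.35 with both. The second array taken alone read above both Rag1-sufficient GFP+ arrays for all 9 genes.

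The comparison of the 2 fractions, GFP+ minus GFP- averaged over the genotypes, is another contrast than those that chose the genes, though it rests on the same arrays. For Atp6v0a1 and Spry2 it was carried by the low Rag1-sufficient GFP+ arrays that also entered the choice, so their values are a description, -0.48 ± 0.10 for Atp6v0a1 and -0.18 ± 0.06 for Spry2. The arrays compared here also entered the choice of the other 7 genes. Their values and counts are therefore a description too, and not an independent test. Smpd1, Prelid2 and Adgrg1 read lowest in the Rag1-sufficient GFP- arrays, and Timp2 and Colgalt2 in the Rag1-sufficient GFP+ arrays. Of these 7, 0 passed the threshold (limma, Benjamini-Hochberg adjusted over all probe sets), where 37 of 17445 probe sets did (0.212%). At an unadjusted p under 0.05 there were 2 of 7, where 7.38% of all probe sets lay. They were Colgalt2 at -0.60 ± 0.10 (95% interval -0.82 to -0.37, adjusted p = 0.0735) and Timp2 at -0.50 ± 0.12 (-0.76 to -0.23, adjusted p = 0.2005), both on the side of lower levels in GFP+ cells.

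The other 5 genes had intervals that included 0. Upp1 differed between the fractions by -0.03 (-0.32 to 0.27), Smpd1 by 0.11 (-0.16 to 0.38), Prelid2 by 0.23 (-0.09 to 0.56), Adgrg1 by -0.16 (-0.41 to 0.10) and Amph by -0.29 (-0.68 to 0.09). These values moved with single arrays. Without Rag1-/- GFP+ replicate 1, Upp1 was at 0.07, Smpd1 at 0.18, Prelid2 at 0.38, Adgrg1 at -0.10 and Amph at -0.45. Without Rag1-/- GFP+ replicate 2 the same genes were at -0.12, 0.03, 0.09, -0.21 and -0.13. With all arrays, the difference averaged over the genotypes was above 0 for 2 of the 9 genes, Smpd1 and Prelid2, and below 0 for the others. The median was -0.18, beside 0.01 over all probe sets.

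**Figure D2:**
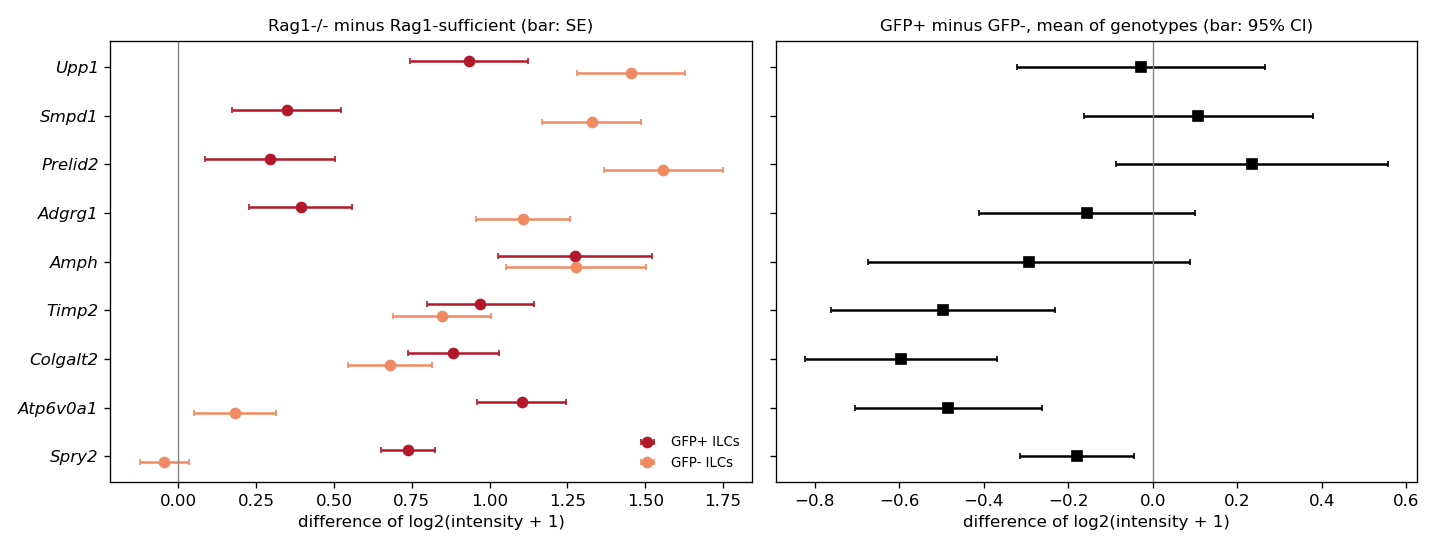
Left panel, log2 difference of Rag1-/- minus Rag1-sufficient samples for each gene in GFP+ and in GFP- cells with standard errors. Right panel, GFP+ minus GFP- over both genotypes with 95% intervals. Prelid2 has the greatest GFP- difference (1.56) and Amph the greatest GFP+ difference (1.27). The right-hand intervals of Timp2, Colgalt2, Atp6v0a1 and Spry2 lie below 0, and the values of both panels are a description.

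The mean over genotypes covered different differences in each genotype for some genes, which are given here without a test because the genotype entered the choice. In Rag1-/- cells Smpd1, Adgrg1 and Prelid2 read lower in the GFP+ than in the GFP- fraction, by log2 differences of -0.38, -0.51 and -0.40. In Rag1-sufficient cells they read higher in the GFP+ fraction, by 0.60, 0.20 and 0.87. Upp1 had the same signs, at -0.29 in Rag1-/- cells and 0.23 in Rag1-sufficient cells, where its fractions overlapped. Atp6v0a1 differed by -0.02 between the fractions in Rag1-/- cells and by -0.94 in Rag1-sufficient cells, and Spry2 by 0.21 and by -0.57. Timp2 and Colgalt2 read lower in GFP+ cells of both genotypes, at -0.43 and -0.49 in Rag1-/- cells and -0.56 and -0.70 in Rag1-sufficient cells. Over the whole array 0 probe sets passed the limma threshold for an interaction of fraction and genotype (0.00%), and 2378 had an unadjusted p under 0.05.

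Each gene was then set beside the other genes of its pathway, 180 tested genes in 9 lists. Among them Mmp10 passed the threshold in GFP+ cells, where it was lower (0.195% of all probe sets were called lower), and 0 passed in GFP- cells (limma, Benjamini-Hochberg adjusted over all probe sets). At an unadjusted p under 0.05 there were 15 in GFP+ cells (8.33%, beside 6.82% of all probe sets) and 41 in GFP- cells (22.8%, beside 17.3%). The pathway genes below are given with their values, most of which did not pass.

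**Figure D3:**
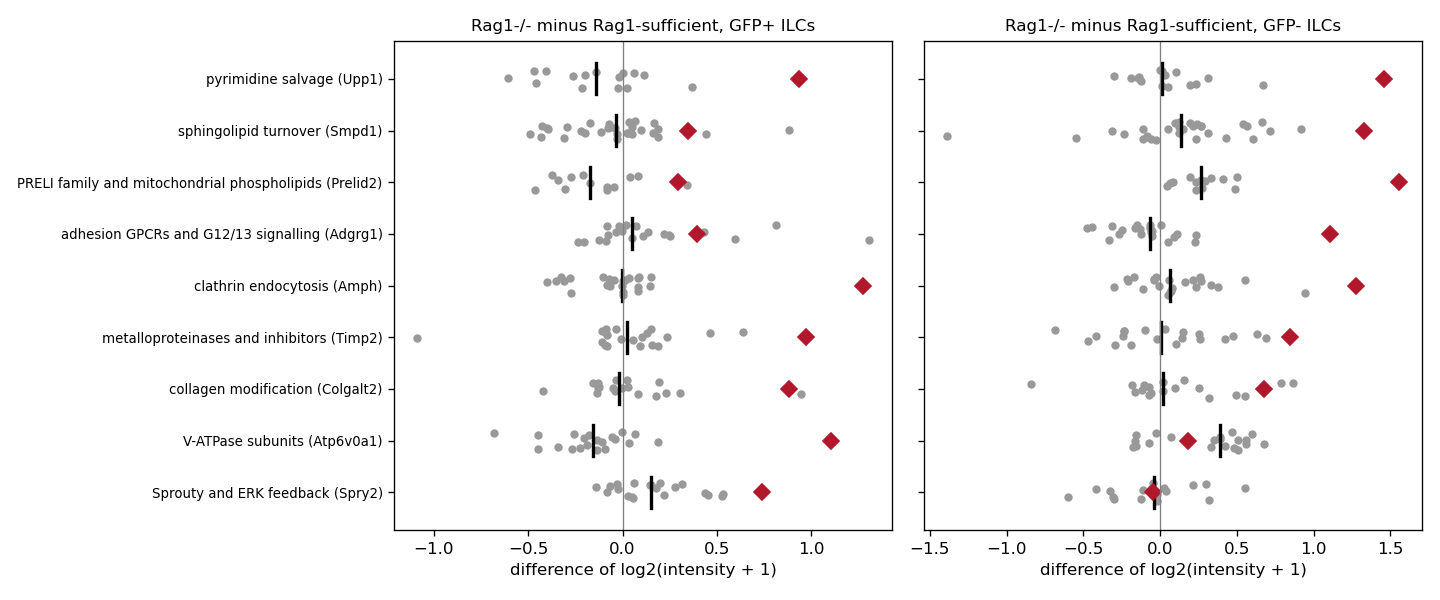
Log2 differences between Rag1-/- and Rag1-sufficient samples of the listed pathway genes in GFP+ and GFP- cells, 1 line for each pathway, with grey points for the listed genes, a black bar at their median and a red diamond for the gene described here. The partners centre close to 0 in most lists, and the V-ATPase subunits have medians of -0.16 in GFP+ and 0.39 in GFP- cells.

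Of the genes that salvage and break down pyrimidines, 15 of 20 were tested with Upp1, and 0 passed. Their median difference was -0.14 in GFP+ and 0.02 in GFP- cells. Uck2, the uridine kinase that competes for the same substrate, differed by -0.46 (adjusted p = 0.397) in GFP+ cells and 0.23 (adjusted p = 0.340) in GFP- cells. Upp2, the second uridine phosphorylase, was too dim to be tested, at 19.4 to 22.6 on all arrays.

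Of the genes that turn over sphingolipids, 30 of 33 were tested with Smpd1 and 0 passed, with medians of -0.03 in GFP+ and 0.14 in GFP- cells. Asah1, the acid ceramidase that acts on the ceramide made by Smpd1, differed by -0.11 in GFP+ cells and 0.91 (adjusted p = 0.196) in GFP- cells. Smpdl3a, a related phosphodiesterase, differed by 0.05 in GFP+ and 0.66 (adjusted p = 0.201) in GFP- cells. Of these 30 genes, 11 had an unadjusted p under 0.05 in GFP- cells (36.7%, beside 17.3% of all probe sets), 7 of them higher and 4 lower in Rag1-/- cells. The smallest p of the list was that of Acer1, an alkaline ceramidase gene named here after its value was seen, at -1.39 (adjusted p = 0.166 by limma). The Rag1-sufficient GFP- arrays were far apart for Acer1, with a mean of 158.6 ± 104.9 (SD). Rag1-/- GFP- arrays averaged 54.1 ± 13.8.

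Of the PRELI family and the genes of mitochondrial phospholipids, 13 of 16 were tested with Prelid2 and 0 passed. Their median was -0.17 in GFP+ and 0.27 in GFP- cells, and 3 of 13 were above 0 in GFP+ cells against 13 of 13 in GFP- cells. Over all probe sets 44.2% were above 0 in GFP+ cells and 50.1% in GFP- cells. Prelid1 and its partner Triap1, which carry phosphatidic acid between mitochondrial membranes, differed by 0.27 (adjusted p = 0.303) and 0.49 (adjusted p = 0.234) in GFP- cells.

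Of the adhesion receptors and the genes of G12 and G13 signalling, 21 of 29 were tested with Adgrg1 and 0 passed in either fraction, with medians of 0.05 in GFP+ and -0.07 in GFP- cells. Adgrg3, a receptor of the same subfamily, differed by 0.60 (adjusted p = 0.267) in GFP+ and 0.11 in GFP- cells. Gna13, which encodes the G13 alpha subunit, differed by -0.09 (adjusted p = 0.945) and -0.17 (adjusted p = 0.462). Cd81, a tetraspanin that associates with GPR56, was lower in GFP+ than in GFP- cells over the genotypes (-1.15 ± 0.15, adjusted p = 0.0318 by limma), where 0.195% of all probe sets were called lower. It averaged 1294 ± 463 in Rag1-/- GFP+ and 713 ± 55.4 in Rag1-sufficient GFP+ samples, with 2129 ± 144 in Rag1-/- GFP- and 2053 ± 5.63 in Rag1-sufficient GFP- samples (SD, n = 2, 2, 3 and 2). Cd81 was named after its value was seen, and it stayed past the threshold in 7 of 16 alternative settings (adjusted p from 0.00273 to 0.180). The call was lost without any 1 of the 4 Rag1-sufficient or the 3 Rag1-/- GFP- arrays (adjusted p from 0.0626 to 0.180).

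Of the clathrin and endocytosis genes, 23 of 25 were tested with Amph and 0 passed, with medians of -0.00 in GFP+ and 0.07 in GFP- cells. Bin1, the second amphiphysin, differed by -0.07 (adjusted p = 0.981) in GFP+ and 0.55 (adjusted p = 0.218) in GFP- cells. Dnm2, the dynamin that cuts vesicles free, differed by -0.08 and -0.04.

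Of the metalloproteinases and their inhibitors, 20 of 26 were tested with Timp2, with medians of 0.02 in GFP+ and 0.01 in GFP- cells. Mmp10, a stromelysin, was lower in GFP+ cells, at 63.2 ± 8.15 in Rag1-/- samples against 135 ± 13.3 in Rag1-sufficient samples (SD, n = 2 each). Its difference was -1.09 ± 0.13 with adjusted p = 0.0174 by limma, and it stayed past the threshold in 7 of 15 alternative settings (adjusted p from 0.0156 to 0.207). It was lost without any 1 Rag1-sufficient array (adjusted p from 0.0760 to 0.207), without Rag1-/- GFP+ replicate 1 (0.0513) and without Rag1-/- GFP- replicate 2 (0.0507). In GFP- cells it differed by -0.47 ± 0.12 (adjusted p = 0.160). Timp3 differed by 0.64 (adjusted p = 0.791) in GFP+ cells and -0.10 in GFP- cells.

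Of the collagen-modifying enzymes, 18 of 21 were tested with Colgalt2 and 0 passed, with medians of -0.02 in GFP+ and 0.02 in GFP- cells. Colgalt1, the broadly expressed galactosyltransferase of the pair, differed by -0.03 (adjusted p = 0.991) in GFP+ and 0.32 (adjusted p = 0.275) in GFP- cells. Plod2, which encodes a lysyl hydroxylase, had the greatest difference of the list in both fractions. It was 0.95 (adjusted p = 0.335 by limma) in GFP+ and 0.87 (adjusted p = 0.158 by limma) in GFP- cells.

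Of the V-ATPase subunits, 20 of 22 were tested with Atp6v0a1 and 0 passed. In GFP+ cells, where Atp6v0a1 read higher, 3 of 20 other subunits were above 0 (beside 44.2% of all probe sets) and the median was -0.16. In GFP- cells 14 of 20 were above 0 (beside 50.1%) and the median was 0.39. Of the other a subunits, Atp6v0a2 and Tcirg1 differed by -0.13 (adjusted p = 0.941) and 0.07 in GFP+ cells, and by 0.39 (adjusted p = 0.264) and -0.03 in GFP- cells. Atp6v0a4, a further a subunit, differed by -0.04 in GFP+ and -0.17 in GFP- cells (adjusted p = 0.964 and 0.263).

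Of the Sprouty family and the ERK feedback genes, 20 of 24 were tested with Spry2 and 0 passed, with medians of 0.15 in GFP+ and -0.04 in GFP- cells. In GFP+ cells 15 of 20 were above 0, beside 44.2% of all probe sets. The family members Spry1 and Spry4 differed by 0.45 (adjusted p = 0.649) and 0.53 (adjusted p = 0.527) in GFP+ cells and by -0.02 and 0.02 in GFP- cells.

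Genes listed as markers of other cell types also differed between the genotypes, whichever cells of the sort held them. The summed intensity of 8 T cell genes was 4106 and 7556 in Rag1-/- GFP+ samples, against 3947 and 3256 in Rag1-sufficient GFP+ samples. In GFP- samples it was 5295 to 7903 on the 3 Rag1-/- arrays, against 2600 and 2473 on the Rag1-sufficient arrays. The T cell sum was thus higher on every Rag1-/- array than on any Rag1-sufficient array of its fraction. Of the 8 genes, Cd3e passed as higher in GFP+ cells (2.68 ± 0.39, adjusted p = 0.0419 by limma) and 0 passed in GFP- cells. Of all probe sets, 0.0516% were called higher in each fraction. In GFP+ cells 5 of the 8 genes were above 0 (beside 44.2% of all probe sets). Lat (-0.22), Zap70 (-0.05) and Cd8a (-0.04) were below it. In GFP- cells 7 of 8 had an unadjusted p under 0.05 (87.5%, beside 17.3% of all probe sets), with Cd8a lower and the other 6 higher in Rag1-/- cells. The Cd3e call was lost without any 1 Rag1-sufficient or Rag1-/- GFP- array (adjusted p from 0.0782 to 0.365). Cd8a read 51.7 to 67.5 on all arrays.

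The sum of 10 genes of NK and cytotoxic cells was 2665 and 6837 in Rag1-/- GFP+ samples, against 3679 and 3771 in Rag1-sufficient GFP+ samples, which overlapped. In GFP- samples it was 3131 to 3890 on the Rag1-/- arrays, against 1656 and 1641 on the Rag1-sufficient arrays. Of 6 such genes tested, the granzyme gene Gzmc was higher in both fractions, at 4.18 in GFP+ (adjusted p = 0.00312 by limma) and 3.32 in GFP- cells (adjusted p = 0.00972 by limma). The GFP+ call was lost without Rag1-sufficient GFP+ replicate 2 (adjusted p = 0.0736), and the GFP- call without Rag1-sufficient GFP- replicate 1 (0.0540) or 2 (0.164). In GFP+ cells 4 of the 6 genes were above 0, while Gzmb (-0.41) and Nkg7 (-0.23) were below it. In GFP- cells 6 of 6 were above 0. At an unadjusted p under 0.05 there were 3 of 6 in each fraction, beside 6.82% of all probe sets in GFP+ and 17.3% in GFP- cells. Nkg7 was the brightest gene of the sum, averaging 3014.5 in Rag1-/- GFP+ and 3030.6 in Rag1-sufficient GFP+ samples. The defining NK genes Ncr1, Klrb1c and Eomes were under or near the limit for dim probe sets, at 16.1 to 51.4 over all arrays. The sort left out CD3+ and CD5+ cells, and Rag1-/- mice lack mature T cells. The T cell and cytotoxic sums were higher on the Rag1-/- GFP- arrays, as were Upp1, Amph, Timp2, Colgalt2, Smpd1, Prelid2 and Adgrg1. The part of the genes summed in the differences of the 9 genes was not tested.

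Mast cell genes ran otherwise. Their sum over 11 genes was 3634 and 410 in Rag1-/- GFP+ samples, against 464 and 445 in Rag1-sufficient GFP+ samples. In GFP- samples it was 3651 to 4561 on the Rag1-/- arrays, against 9174 and 9361 on the Rag1-sufficient arrays. Of 8 mast cell genes tested, 0 passed in either genotype comparison. In GFP- cells 6 had an unadjusted p under 0.05 (75%, beside 17.3% of all probe sets), all of them lower. The median difference of the list was -1.27 there. Between the fractions over the genotypes, 4 of the 8 passed as lower in GFP+ cells, where 0.195% of all probe sets were called lower. They were Tpsb2 (-1.27, adjusted p = 0.0086 by limma) and Cma1, Mrgprb1 and Cyp11a1 (-1.69, -2.14 and -1.48, adjusted p = 0.0318 by limma for each). These calls were lost without either Rag1-sufficient GFP+ array and without Rag1-sufficient GFP- replicate 2. The part of the lower mast cell sum in the GFP- differences of the 9 genes was not tested. Nor was the part of mast cell genes in the fraction differences of the 9 genes or of Cd81.

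Of the remaining marker lists, 0 genes passed in either genotype comparison for B cells (2 tested), macrophages and monocytes (5), keratinocytes (7), fibroblasts (6), endothelium (3) and melanocytes and Schwann cells (4). Among dendritic and Langerhans cell genes, Xcr1 passed as lower in GFP- cells, at 40.1 ± 1.27 in Rag1-/- samples (n = 3) against 66.6 ± 2.27 in Rag1-sufficient samples (n = 2; SD). Its difference was -0.72 ± 0.07 with adjusted p = 0.0124 by limma, and the call was lost without either Rag1-sufficient GFP- array or without Rag1-/- GFP- replicate 2 or 3 (adjusted p from 0.0636 to 0.164). All 5 neutrophil genes were under the limit for dim probe sets. Of the 32 genes tested in these lists, 5 in GFP+ and 11 in GFP- cells had an unadjusted p under 0.05, shares to be set beside 6.82% and 17.3% of all probe sets. Keratinocyte genes ran lower in Rag1-/- cells, with medians of -0.42 in GFP+ and -0.80 in GFP- cells. Their sum over 7 genes was 1506 and 1658 in Rag1-/- GFP+ samples, against 2306 and 1796 in Rag1-sufficient GFP+ samples. In the GFP- fraction it was 1639.5 to 2347 on the Rag1-/- arrays, against 2315 and 3489 on the Rag1-sufficient arrays, which overlapped. The part of these genes in the differences of the 9 genes was not tested.

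**Figure D4:**
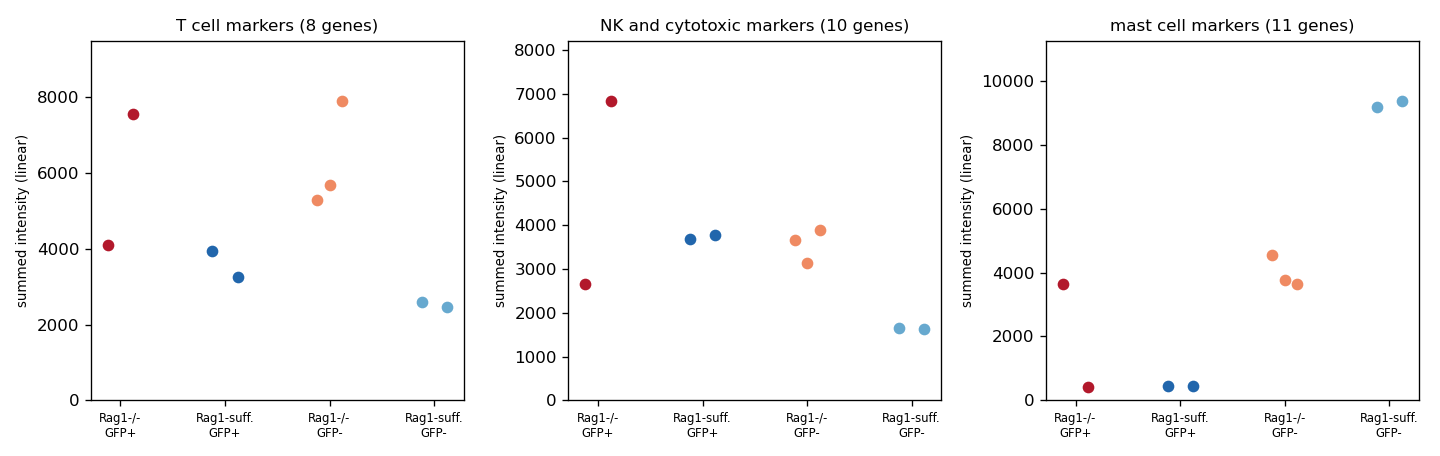
Summed intensity of the T cell, NK and cytotoxic, and mast cell gene lists on each array (linear axis from 0, 1 point per array), with the groups in the order Rag1-/- GFP+, Rag1-sufficient GFP+, Rag1-/- GFP- and Rag1-sufficient GFP-. The T cell sums of the Rag1-/- arrays lie above those of the Rag1-sufficient arrays of the same fraction, and the mast cell sum differs between the Rag1-/- GFP+ arrays at 3634 and 410.

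For each of the 9 genes, the other genes most like it over the 9 arrays were found by Pearson correlation of log2 intensity. All arrays share the same 4 groups, so any gene with a like group pattern ranks high, and these values are descriptions without a test. Smpd1 was most like Susd2 (r = 0.972) and Pxdc1 (r = 0.961), and Prelid2 was most like Cdk5 (r = 0.972) and Sdr39u1 (r = 0.964). Adgrg1 was most like Ak4 (r = 0.967) and Mtpn (r = 0.949).

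Timp2 and Amph had the chemokine receptor gene Ccr6 in common, with r = 0.975 for Timp2 and r = 0.957 for Amph. Amph was also like Aldoa (r = 0.959), and Timp2 like Olfm1 (r = 0.957). Colgalt2 was most like Rasgef1b (r = 0.985) and Laptm4b (r = 0.982). Atp6v0a1 was most like Pde7b (r = 0.980) and Fnbp1 (r = 0.966), and Spry2 was most like Ptgs2 (r = 0.954), the inducible cyclooxygenase gene, and Tdrd7 (r = 0.953).

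Upp1 was most like 1 probe set of Kcnma1 (r = 0.937) and like Mtpn (r = 0.935). That Kcnma1 probe set read 8736 to 9891 on the 5 Rag1-/- arrays, against 23.2 to 49.8 on the 4 Rag1-sufficient arrays. A second Kcnma1 probe set read 50.9 to 70.2 on the Rag1-/- arrays, against 37.8 to 43.9 on the Rag1-sufficient arrays. The 2 probe sets of this potassium channel gene disagreed in size, and no fold change is given for it.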

How the data were processed

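Per the labels, total RNA of the sorted cells was extracted with Trizol and hybridised as biotinylated single-stranded DNA. The authors deposited 1 linear intensity per probe set and array, without detection calls. MAS5 is named in the submitters' processing notes, with neither version nor role. How arrays were normalized, and on which genome build probes were annotated, is not given in the sources used here. Identical values on 2 or more arrays occurred in 12464 probe sets, which understates some spreads. Rank correlations between arrays were 0.981 to 0.992 within groups and 0.975 to 0.993 between groups.

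Of 24922 probe sets, 21425 had 1 gene symbol in the platform annotation, 1399 several and 2098 none. Of the named ones, 21347 matched GRCm38.p6 by gene identifier, and this build gave symbols, coordinates and promoters. A gene with more than 1 probe set was represented by the brightest. Intensities were used as log2(value + 1), which understates changes of dim genes, and the dimmest 30% of probe sets by mean were left out. A model with 1 mean per group was fitted over 17445 probe sets with limma 3.58.1 in R 4.3.3 (trended eBayes; residual degrees of freedom 5, prior 3.56). P-values were two-sided, with Benjamini-Hochberg adjustment across the whole table and a threshold of 0.05. The number of arrays limits the precision. The fit was tested on simulated data.

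The 9 genes, the gene lists and the tests were chosen with earlier results of these data known. The text names the 9 genes, the 2 genes most correlated with each over the arrays (leaving out predicted genes, Riken clones, unnamed loci and small RNA genes), every listed pathway gene past the threshold in a genotype comparison, and otherwise up to 2 partners. Cell type lists cover ILC, T, B, NK, mast, myeloid, dendritic and neutrophil cells, keratinocytes, fibroblasts, endothelium and melanocytes and Schwann cells. Alternatives were a pseudocount of 16, other filters, quantile normalization, eBayes without trend, array weights, the replicate number as a block and leaving out each array.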

Additional observations from a re-analysis of the deposited data

Results flagged for a closer look

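Smpd1, Adgrg1 and Spry2 had GFP+ and GFP- arrays that separated completely in both genotypes and in opposite directions. How many of all probe sets do so was not counted. Complete separation is frequent in groups this small. Rag1-/- arrays lay entirely above Rag1-sufficient arrays for 11.0% of all probe sets tested in GFP+ cells and for 23.0% in GFP- cells. That is a comparison of genotypes, so its shares do not tell how often fractions separate in opposite directions. For Smpd1, the Rag1-/- GFP+ arrays (542 and 671) lay below the Rag1-/- GFP- arrays (721 to 875), whereas the Rag1-sufficient GFP+ arrays (456 and 491) lay above the GFP- arrays (333 and 293). The difference between fractions was -0.98 on the log2 scale in Rag1-/- relative to Rag1-sufficient cells. For Adgrg1 it was -0.71 in the same sense, with GFP+ below GFP- in Rag1-/- cells and above it in Rag1-sufficient cells. For Spry2 it was 0.78, with GFP+ above GFP- in Rag1-/- cells and below it in Rag1-sufficient cells. All 3 Rag1-/- GFP- arrays held the identical deposited Spry2 value of 93.0, so their spread is not measured. These differences were not tested, because the genotype comparison had been used to choose the genes. Single arrays that stand apart cannot be judged in groups of 2 or 3.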

How the results depend on the processing

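The counts of called probe sets moved with the settings. In GFP+ cells, 43 were called between genotypes (9 higher and 34 lower). The count was 19 with quantile normalization (8 higher and 11 lower), 3 with eBayes without trend and 1 to 135 when single arrays were left out, the highest without Rag1-/- GFP+ replicate 2. In GFP- cells, 25 were called (9 higher and 16 lower). The count was 43 with a pseudocount of 16, 9 with the lowest 50% left out, 1168 with array weights, and 1 to 139 when single arrays were left out, the lowest without Rag1-sufficient GFP- replicate 2 and the highest without Rag1-/- GFP- replicate 1. Between fractions 37 were called, and 0 to 136 when single arrays were left out, the highest without Rag1-/- GFP+ replicate 1. The 0 arose without either Rag1-sufficient GFP+ array or without Rag1-sufficient GFP- replicate 2, where 746 to 1002 probe sets had an unadjusted p under 0.05 in limma. The causes were not tested. With the replicate number as a block, the counts were 2 in GFP+ cells, 6 in GFP- cells and 6 between fractions. Deviations of same-numbered arrays correlated at -0.507 to 0.237 over 12 pairs, beside -0.399 to 0.507 over 18 others. In groups of 2 arrays the deviations mirror each other, so these pairs are not independent, and no pairing is read from them.

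For the 9 genes, 432 alternative values were computed. Of these 425 stayed within 1 SD of the replicates, and 7 moved further. The sign changed in 4, all of the fraction difference of Upp1 (-0.03), which was 0.02 with quantile normalization and 0.04 to 0.09 without Rag1-sufficient GFP+ replicate 2, Rag1-sufficient GFP- replicate 2 or Rag1-/- GFP+ replicate 1. The 7 that moved further were Atp6v0a1 (0.96) and Spry2 (0.63) in GFP+ cells and Upp1 (1.29) in GFP- cells with a pseudocount of 16, Smpd1 (1.16), Adgrg1 (0.92) and Timp2 (0.67) in GFP- cells with quantile normalization, and Spry2 in GFP- cells (-0.09) without Rag1-sufficient GFP- replicate 2. Between fractions 0 of the 9 genes passed in any of the 16 alternatives.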
